A study of Rattus norvegicus with 9 samples.

Results

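RNA levels of 8 cholesterol synthesis genes were followed after nitrogen mustard injury in alveolar macrophages, cells that clear particles and surfactant from the alveoli. The genes were those of 7 enzymes, Hmgcs1, Pmvk, Idi1, Fdps, Fdft1, Sqle and Cyp51, and Insig1, the protein that holds the pathway's transcription factor in check. Sterols and proteins were not measured in these data, so how much cholesterol was made is not known. The genes were chosen by symbol with earlier results of these data known, so the counts of them given below are descriptions. They are 8 of the 17109 genes obtained when the values of transcripts with 1 symbol were summed. Each came from 1 transcript row. All 8 passed the filter on low values and were among the 9885 genes tested. RNA came from male Wistar rats. The 3 groups of 3 biological replicates were rats given phosphate-buffered saline (PBS) into the trachea, and rats whose cells were taken 1 d (NM day 1) or 28 d (NM day 28) after 0.125 mg/kg nitrogen mustard (mechlorethamine hydrochloride, an alkylating agent that cross-links DNA) by the same route. The labels give day 0 for the PBS rats but not when after PBS they were taken, nor whether a library pooled several rats. No control was labelled day 1 or day 28. Replicates are numbered 0, 1 and 2 as in the labels. Macrophages filled with lipid, called foam cells, are named in the study's title.

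Cells make cholesterol from acetyl-CoA by way of mevalonate, isoprenoid diphosphates, squalene and lanosterol. When the membranes of the endoplasmic reticulum run low in sterol, the escort Scap carries the SREBP transcription factors to the Golgi, where they are cleaved, and the released part enters the nucleus and switches on the genes of nearly every step. Insig proteins keep Scap and SREBP in the endoplasmic reticulum while sterol is plentiful, and Insig1 is itself an SREBP target. Alveolar macrophages take up and break down lipid-rich surfactant, and so have a supply of cholesterol from outside as well as their own synthesis.

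The promoter sequences of members were looked at because these genes share a known regulator. Of the 8 genes 5 had an entry in the RefSeq promoter table (build GRCr8, whose coordinates are not those of the build rn4 used by the submitters): Hmgcs1, Idi1, Fdps, Cyp51 and Insig1. The 250 bases upstream of the start were searched on both strands. CCAAT, the box bound by NF-Y, a factor that works beside SREBP, was in 4 of these 5 promoters and at least 2 times in 3 of them (Hmgcs1, Idi1 and Fdps). It was in 34.3% of the promoters of 27457 genes, the first entry of each, and at least 2 times in 9.77%. Stretches of 120 bases are shown for the 4 promoters that hold it, 5′ to 3′ as the gene reads, with CCAAT or its complement ATTGG in capitals, and in Fdps also TCACACGAG.

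Hmgcs1 (chr2:53382101-53382220, plus strand): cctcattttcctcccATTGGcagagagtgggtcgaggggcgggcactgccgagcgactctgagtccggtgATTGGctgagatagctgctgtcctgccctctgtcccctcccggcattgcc
Idi1 (chr17:66547525-66547644, minus strand): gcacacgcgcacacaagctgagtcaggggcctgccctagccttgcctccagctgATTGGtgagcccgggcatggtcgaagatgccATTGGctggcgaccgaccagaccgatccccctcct
Fdps (chr2:176804842-176804961, minus strand): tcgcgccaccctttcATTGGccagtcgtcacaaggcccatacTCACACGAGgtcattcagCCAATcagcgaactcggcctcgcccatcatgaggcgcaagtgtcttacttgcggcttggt
Insig1 (chr4:8057858-8057977, minus strand): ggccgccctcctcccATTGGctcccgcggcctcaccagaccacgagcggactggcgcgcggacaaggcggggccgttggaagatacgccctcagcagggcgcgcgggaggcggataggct

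The classical sterol regulatory element, searched as TCACNCCAC, was in 0 of the 5 promoters and in 0.976% of all, and the shorter form CACCCCAC, which overlaps it where N is C, in 0 of 5 and 2.24%. TCACACGAG, known as the sterol regulatory element of the Fdps gene, stood in the Fdps promoter, from 103 to 95 bases upstream of the start and between its CCAAT boxes, and in 0.0911% of all promoters (this motif was chosen after the sequence was seen). GGGCGG, the Sp1 box, was in 4 of the 5 (Hmgcs1, Fdps, Cyp51 and Insig1) and in 32.4% of all. The Cyp51 promoter held 0 CCAAT boxes. These matches are letters in a window, and binding was not measured.

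Levels are FPKM, fragments scaled to transcript length and to a factor for each library. No source used here says how that factor was set. The upper quartile of FPKM was nearly the same in the 9 libraries (19.1 to 19.6), whereas the sum ranged from 709397 to 969540. Since length is accounted for, genes can be set beside each other. In PBS the 8 genes spanned 64.8 ± 12.1 FPKM (mean ± SD, n = 3 in this and all later such values) for Fdps, higher than 83.1% of the genes tested, to 8.79 ± 2.63 for Idi1, higher than 33.2%. Fdft1, Pmvk, Insig1, Cyp51, Hmgcs1 and Sqle lay between them in that order. The libraries of Fdft1 and Pmvk overlapped, as did those of Pmvk and Insig1, of Hmgcs1 and Sqle and of Sqle and Idi1. Fdps led in all 3 groups, and Sqle was last in both NM groups. Pmvk stood second on day 1 and sixth on day 28.

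On day 28 the mean FPKM of Hmgcs1, Idi1, Fdps, Fdft1, Cyp51 and Insig1 was 1.72 (Cyp51) to 2.87 (Idi1) times that in PBS. On day 1 Hmgcs1 and Idi1 had risen, to 1.69 and 2.27 times PBS, whereas Fdps, Fdft1 and Cyp51 stood at 0.992, 1.03 and 1.099 times. Pmvk was the 1 gene of the 8 with a mean below PBS on day 28 (0.765 times). Differences were tested with limma on log2(FPKM + 1), in which a fold change of a low gene comes out smaller than the ratio of its FPKM, and a gene is called higher or lower at a Benjamini-Hochberg adjusted p under 0.05. On day 1, 2 of the 8 genes were called higher than PBS and 0 lower, against 5.28% of all genes higher and 4.58% lower. On day 28, 6 were higher than PBS and 0 lower, against 3.07% and 3.98%. From day 1 to day 28, 5 were higher and 1 lower, against 4.75% and 6.88%. The median log2 fold changes of the 8 genes were 0.38, 0.95 and 0.60 in these comparisons, and those of all genes -0.04, -0.04 and 0.00. Both comparisons with PBS use the same 3 control libraries.

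Relative depth was estimated from low FPKM values, by the ratio that recurs most often against NM day 1 replicate 0 (set to 1). It ran from 1.42 to 2.58 in PBS, from 1 to 1.47 in NM day 1 and from 1.04 to 1.13 in NM day 28, and absolute depth is not known. NM day 28 replicate 1 stood apart: 801 of the genes tested (8.10%) lay over 2-fold above or below both other libraries of its group, against 2.58% to 4.40% for the other 8 libraries. Macrophage genes were abundant (summed FPKM of Cd68, Csf1r, Fcer1g, Tyrobp and Lyz2 from 15290 to 36116), whereas Marco and Adgre1, which mark these cells, were listed at 0 in all 9 libraries, and Chil3 and Itgax were not analysed here. A listed 0 in these files can be a failed estimate and does not show that the RNA was absent, which holds for every gene given at 0 in all libraries. In such bulk samples fewer cells of a type and less RNA per cell cannot be told apart.

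**Figure D1:**
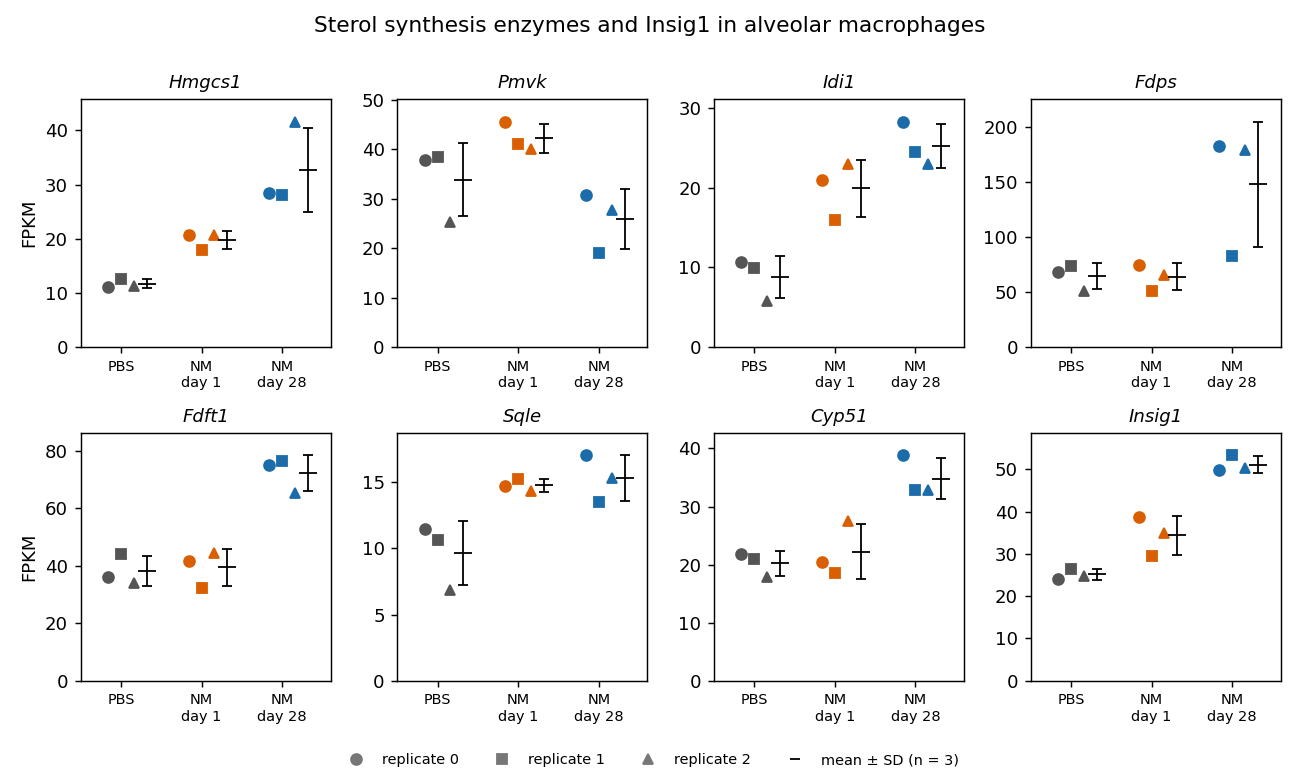
FPKM of the 8 genes (vertical axes, each from 0) in the 3 groups, with 1 symbol per library and the mean ± SD beside it. On day 28 the libraries of Hmgcs1, Idi1, Fdps, Fdft1, Sqle, Cyp51 and Insig1 all lay above the 3 PBS libraries, Fdps in NM day 28 replicate 1 (82.7 FPKM) being the closest to PBS in its group, and those of Pmvk did not.

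The first enzymes act on the way to the isoprenoid diphosphates. Hmgcs1, which makes HMG-CoA from acetoacetyl-CoA, was at 11.1, 12.6 and 11.4 FPKM in PBS, 20.7, 17.9 and 20.7 on day 1 and 28.4, 28.1 and 41.6 on day 28. The 3 groups did not overlap, and the highest value was NM day 28 replicate 2. Hmgcs1 rose on day 1 from 11.7 ± 0.8 to 19.8 ± 1.59 FPKM (log2 fold change 0.71 ± 0.18 SE, adjusted p = 0.0319). It rose further to 32.7 ± 7.69 FPKM on day 28 (log2 fold change 1.38 ± 0.18 SE, adjusted p = 0.00118 against PBS). The step from day 1 to day 28 also passed (log2 fold change 0.68 ± 0.18 SE, adjusted p = 0.0347). The call against PBS on day 28 was kept with each library left out, whereas that on day 1 was lost without any 1 of the 6 libraries it compares. Leaving out PBS replicates 0, 1 or 2 gave an adjusted p of 0.0872, 0.0896 or 0.0678. Leaving out NM day 1 replicates 0, 1 or 2 gave 0.138, 0.066 or 0.0949. The call of day 28 over day 1 was lost without PBS replicate 1 (adjusted p = 0.0563), NM day 1 replicate 0, 1 or 2 (0.0817, 0.126 and 0.0812) or NM day 28 replicate 2 (0.123), and with only the 6 libraries compared (0.0559).

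Pmvk is the kinase that turns phosphomevalonate into mevalonate diphosphate. Its values were 37.9, 38.5 and 25.3 FPKM in PBS, 45.6, 40.99 and 40.1 on day 1 and 30.9, 19.1 and 27.8 on day 28. All day 1 libraries lay above PBS, if by little, and all day 28 libraries below day 1, whereas PBS and day 28 overlapped. Neither comparison with PBS passed (log2 fold change 0.33 ± 0.21 SE, adjusted p = 0.361 on day 1, and -0.38 ± 0.21, adjusted p = 0.31 on day 28). From day 1 to day 28 Pmvk fell from 42.2 ± 2.92 to 25.9 ± 6.07 FPKM (log2 fold change -0.71 ± 0.21 SE, adjusted p = 0.0496), close to the threshold. That call was kept without PBS replicate 2 and lost in the other 8 fits that leave out 1 library. The adjusted p was 0.0548 or 0.0672 if PBS replicate 0 or 1 was left out. It was 0.149, 0.12 or 0.107 if NM day 1 replicate 0, 1 or 2 was. It was 0.0502, 0.106 or 0.0815 if NM day 28 replicate 0, 1 or 2 was. It was also lost with a pseudocount of 0.1 (0.0546), without a filter (0.0716), with a filter of 5 FPKM (0.0522) and with isoforms tested singly (0.0653).

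Idi1 interconverts isopentenyl and dimethylallyl diphosphate, the 5-carbon units from which isoprenoids are built. It was at 10.7, 9.93 and 5.78 FPKM in PBS, 20.9, 15.98 and 22.9 on day 1 and 28.2, 24.4 and 23.01 on day 28, so that the groups did not overlap and PBS replicate 2 was the lowest library. Idi1 rose on day 1 from 8.79 ± 2.63 to 19.9 ± 3.57 FPKM (log2 fold change 1.12 ± 0.23 SE, adjusted p = 0.011), a call lost without NM day 1 replicate 0 (adjusted p = 0.0632). It stood at 25.2 ± 2.71 FPKM on day 28 (log2 fold change 1.46 ± 0.23 SE, adjusted p = 0.00315 against PBS). The difference between the days did not pass (log2 fold change 0.34 ± 0.23 SE, adjusted p = 0.382, 95% interval -0.16 to 0.83). The day 28 call was kept in all 20 alternative fits, 9 without 1 library and 11 with another setting.

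Fdps joins these units into farnesyl diphosphate, the last intermediate shared with protein prenylation, dolichol and ubiquinone. Its values were 68.8, 74.4 and 51.2 FPKM in PBS, 75.3, 51.5 and 66.1 on day 1 and 183, 82.7 and 179 on day 28. PBS and day 1 overlapped (log2 fold change -0.01 ± 0.28 SE, adjusted p = 0.988, 95% interval -0.62 to 0.60), and 2 of the 3 day 28 libraries were far above all others while NM day 28 replicate 1 was just above the highest day 1 and PBS values. Fdps rose on day 28 to 148 ± 56.8 FPKM, from 64.8 ± 12.1 in PBS (log2 fold change 1.11 ± 0.28 SE, adjusted p = 0.0355) and 64.3 ± 12 on day 1 (log2 fold change 1.12 ± 0.28 SE, adjusted p = 0.0235). Without NM day 28 replicate 1 the change against PBS was 1.49 (adjusted p = 0.00152) and that against day 1 1.496 (0.00143).

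The call of Fdps against PBS was lost without PBS replicate 0, 1 or 2 (adjusted p = 0.067, 0.0724 and 0.0901), NM day 1 replicate 2 (0.0523) or NM day 28 replicate 0 or 2 (0.111 and 0.118). It was also lost without a filter (0.0815), with isoforms tested singly (0.0557) and with only the 6 libraries compared (0.0655). Against day 1 it was lost without NM day 1 replicate 1 or 2 (adjusted p = 0.105 and 0.0628) or NM day 28 replicate 0 or 2 (0.0906 and 0.0877). The 5 enzyme and regulator genes of the pathway lists that lay over 2-fold outside both other day 28 libraries in NM day 28 replicate 1 were Fdps, Mvd, Tm7sf2, Elovl6 and Insig2. Mvd, which makes isopentenyl diphosphate, was at 69.8, 25.1 and 74.98 FPKM in those libraries and Tm7sf2, a sterol reductase, at 18.2, 6.604 and 15.9.

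Fdft1, Sqle and Cyp51 belong to the part of the pathway that serves sterols alone. Fdft1, squalene synthase, was at 36.1, 44.2 and 34.1 FPKM in PBS, 41.5, 32.2 and 44.5 on day 1 and 75.1, 76.5 and 65.2 on day 28. PBS and day 1 overlapped and every day 28 library lay above both. On day 1 the difference was 0.04 ± 0.17 SE (adjusted p = 0.911, 95% interval -0.33 to 0.41). Fdft1 rose on day 28 from 38.1 ± 5.31 to 72.3 ± 6.16 FPKM (log2 fold change 0.91 ± 0.17 SE, adjusted p = 0.0086 against PBS). It was also above day 1 (log2 fold change 0.87 ± 0.17 SE, adjusted p = 0.00697). Both calls were kept in all 20 alternative fits.

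Sqle, squalene epoxidase, which adds the oxygen of the later ring alcohol, was at 11.4, 10.6 and 6.88 FPKM in PBS, 14.7, 15.2 and 14.3 on day 1 and 17.01, 13.5 and 15.3 on day 28. Both NM groups lay above PBS without overlap and overlapped each other, with PBS replicate 2 the lowest of all. Neither difference passed (log2 fold change 0.59 ± 0.20 SE, adjusted p = 0.0857 on day 1, and 0.64 ± 0.20, adjusted p = 0.0814 on day 28), although library weights brought the second to an adjusted p of 0.0482. The change between the days was 0.04 (95% interval -0.40 to 0.48).

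Cyp51, the demethylase that acts on lanosterol, was at 21.8, 20.97 and 17.8 FPKM in PBS, 20.5, 18.6 and 27.5 on day 1 and 38.8, 32.8 and 32.9 on day 28. Day 1 overlapped PBS, with NM day 1 replicate 2 above it, and day 28 lay above both groups. Cyp51 rose on day 28 from 20.2 ± 2.11 to 34.8 ± 3.47 FPKM (log2 fold change 0.76 ± 0.18 SE, adjusted p = 0.0281). It was also higher on day 28 than on day 1 (log2 fold change 0.64 ± 0.18 SE, adjusted p = 0.0403). The day 1 estimate was 0.12 ± 0.18 (adjusted p = 0.739). The call against PBS was lost without PBS replicate 1 or 2 (adjusted p = 0.0899 and 0.0664) or NM day 28 replicate 0 or 2 (0.0906 and 0.0615). That against day 1 was lost without PBS replicate 1 (0.0662), NM day 1 replicate 0 or 1 (0.126 and 0.155) or NM day 28 replicate 0 or 2 (0.131 and 0.0752), and with only the 6 libraries compared (0.061).

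Insig1, the sterol-dependent anchor of Scap, had the smallest spread relative to its mean among the 8 genes in PBS and on day 28. It was at 24.03, 26.5 and 24.8 FPKM in PBS, 38.7, 29.6 and 34.9 on day 1 and 49.8, 53.3 and 50.2 on day 28, and the 3 groups did not overlap. Insig1 rose on day 28 from 25.1 ± 1.26 to 51.1 ± 1.92 FPKM (log2 fold change 1.00 ± 0.15 SE, adjusted p = 0.0027), a call kept in all 20 alternative fits. On day 1, at 34.4 ± 4.58 FPKM, it did not pass (log2 fold change 0.43 ± 0.15 SE, adjusted p = 0.0944). It rose from day 1 to day 28 (log2 fold change 0.57 ± 0.15 SE, adjusted p = 0.0314), a call lost after quantile normalisation (adjusted p = 0.0532), with only the 6 libraries compared (0.0517), and without PBS replicate 1 (0.0566), NM day 1 replicate 1 or 2 (0.131 and 0.0856) or NM day 28 replicate 0 or 2 (0.0751 and 0.0734).

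**Figure D2:**
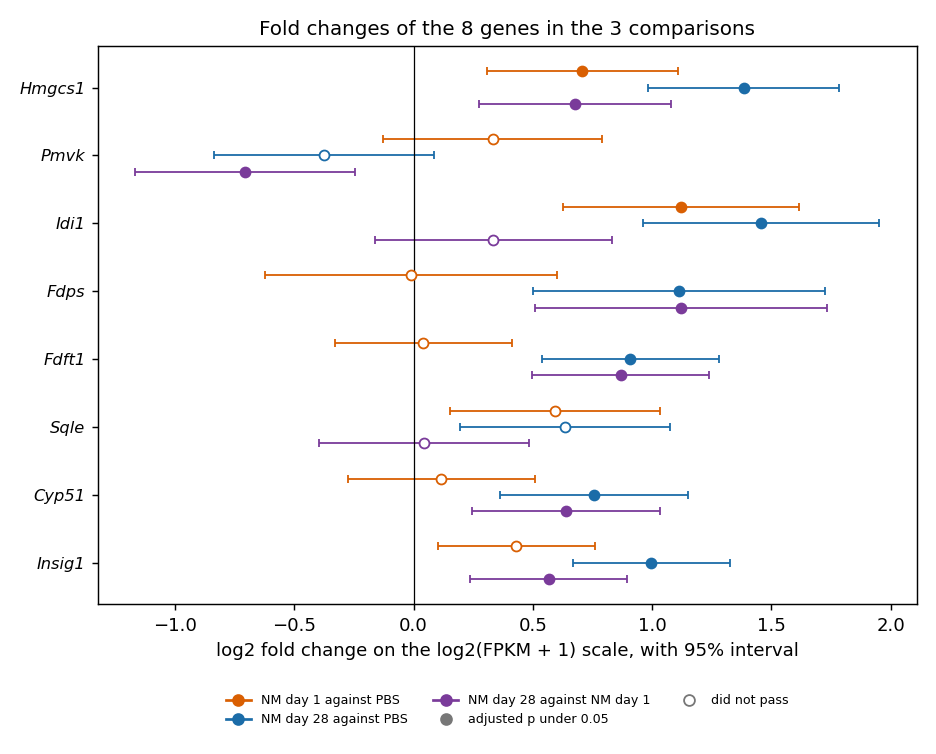
Log2 fold changes of the 8 genes (horizontal axis, with 95% intervals from limma) in the 3 comparisons, filled where the adjusted p was under 0.05. Day 28 against PBS is above 0 for all but Pmvk, while on day 1 Fdps, Fdft1 and Cyp51 lie near 0 (-0.01, 0.04 and 0.12).

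In each group 1 library was lowest for most of the 8 genes. PBS replicate 2 had the lowest value of its group for 6 of the 8 genes (Pmvk, Idi1, Fdps, Fdft1, Sqle and Cyp51), NM day 1 replicate 1 for 6 (Hmgcs1, Idi1, Fdps, Fdft1, Cyp51 and Insig1) and NM day 28 replicate 1 for 5 (Hmgcs1, Pmvk, Fdps, Sqle and Cyp51). Some library must be lowest for each gene, and the share over all genes was not computed. Deviations from the group means correlated unevenly between pairs of the 8 genes. Pearson's r ran from -0.15 (Sqle and Insig1) to 0.89 (Pmvk and Fdps). For Hmgcs1 with Idi1, Fdft1 or Cyp51 it was 0.03. By count, the groups did not overlap, with NM higher, for 5 of the 8 genes on day 1 and 7 on day 28, against 15.2% and 12.7% of all genes. They did not overlap, with NM lower, for 0 of the 8 at either time, against 18.1% and 14.4%. From day 1 to day 28 they did not overlap for 6 genes that were higher and 1 that was lower, against 15.1% and 15.7%.

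The other enzymes of the pathway came from a list of 14, of which 12 were tested. On day 1 limma called 0 of the 12, with 3 at an unadjusted p under 0.05. On day 28, 2 were called higher than PBS and 0 lower, with a median log2 fold change of 0.56, and 9 of the 12 estimates were above 0. Acat2, the thiolase that makes acetoacetyl-CoA in the cytosol, rose from 15.5, 14.03 and 8.64 FPKM in PBS to 27.5, 23.1 and 32.5 on day 28 (log2 fold change 1.09 ± 0.23 SE, adjusted p = 0.0149), without overlap, and was at 20.8, 15.1 and 17.4 on day 1. The call was lost without NM day 28 replicate 2 (adjusted p = 0.0599). Msmo1, which oxidises the methyl groups next removed after the Cyp51 step, rose from 14.7, 12.4 and 8.701 to 20.4, 27.9 and 19.1 FPKM (log2 fold change 0.87 ± 0.22 SE, adjusted p = 0.0364).

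The Msmo1 call was lost without PBS replicate 1 or 2 (adjusted p = 0.102 and 0.0892) or NM day 28 replicate 0, 1 or 2 (0.0657, 0.0751 and 0.0544), without a filter (0.0694), with isoforms tested singly (0.052) and with only the 6 libraries compared (0.0672). Between the days limma called 0 of the 12, with 3 at an unadjusted p under 0.05.

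**Figure D3:**
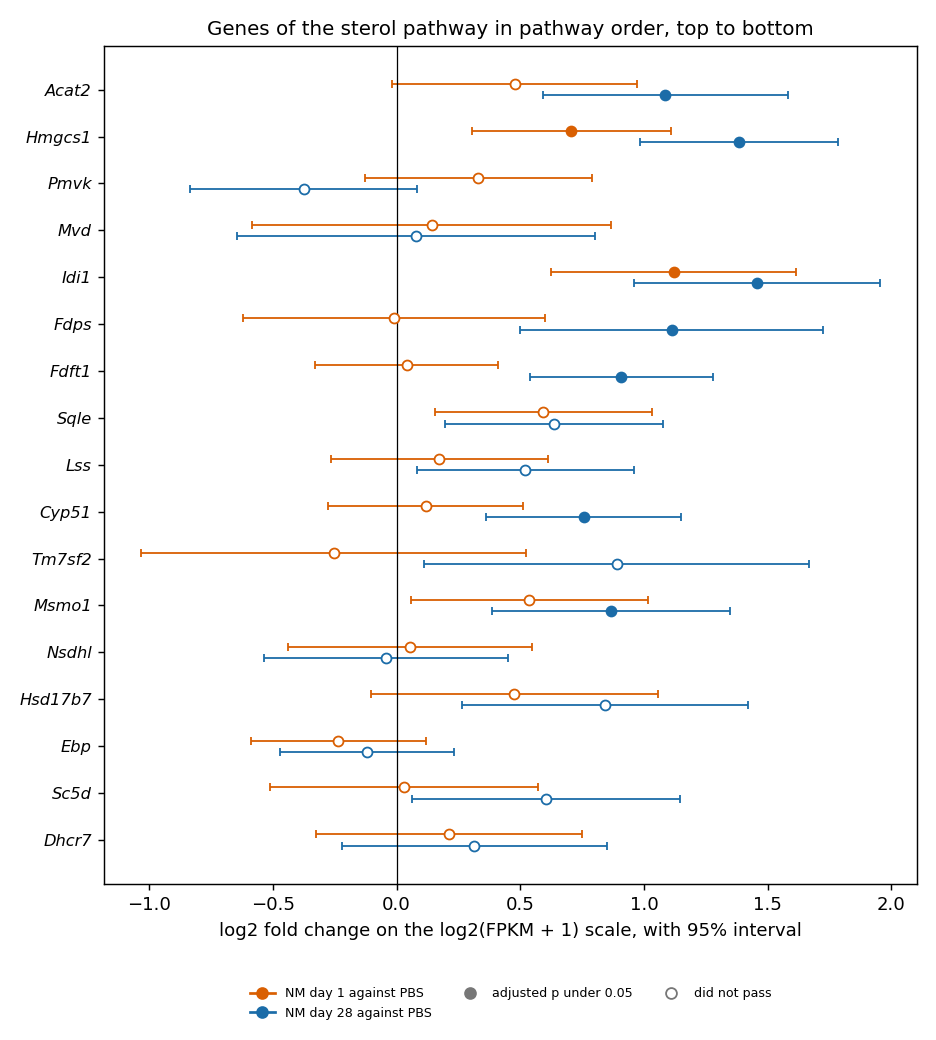
Log2 fold changes against PBS (horizontal axis, with 95% intervals) of 7 of the 8 genes and 10 other enzymes, in pathway order from top to bottom, filled where the adjusted p was under 0.05. The first filled day 28 point is Acat2 (1.09) and the last Msmo1 (0.87), and between them Pmvk, Mvd, Sqle, Lss and Tm7sf2 are open. Among the genes drawn from the 8, Pmvk lies below 0 on that day.

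Of 12 genes for SREBP processing, sterol uptake and sterol transport 11 were tested. On day 1 limma called 2 of them lower than PBS and 0 higher, both central to SREBP: Scap, the escort, and Srebf1, which encodes SREBP-1. Scap was at 36.98, 48.2 and 46.5 FPKM in PBS, 23.3, 29.3 and 26.2 on day 1 and 45.7, 45.1 and 46.3 on day 28. Day 1 lay below both other groups, which overlapped. Scap fell on day 1 (log2 fold change -0.72 ± 0.16 SE, adjusted p = 0.0167) and was higher on day 28 than on day 1 (log2 fold change 0.78 ± 0.16 SE, adjusted p = 0.00833), with a difference of 0.07 between day 28 and PBS (adjusted p = 0.844, 95% interval -0.28 to 0.41).

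Srebf1 followed the same order, with 47.1, 36.8 and 35.5 FPKM in PBS, 21.6, 29.2 and 21.5 on day 1 and 51.8, 38.8 and 47.2 on day 28. It fell on day 1 (log2 fold change -0.70 ± 0.19 SE, adjusted p = 0.0336) and was higher on day 28 than on day 1 (log2 fold change 0.91 ± 0.19 SE, adjusted p = 0.00884). The day 28 over day 1 calls of Scap and Srebf1 were kept in all 20 alternative fits. The day 1 call of Scap was lost without PBS replicate 1 (adjusted p = 0.0923) or NM day 1 replicate 0 or 2 (0.0991 and 0.0508). That of Srebf1 was lost without PBS replicate 0 or 1 (0.113 and 0.0923) or NM day 1 replicate 0 or 2 (0.152 and 0.11), after quantile normalisation (0.0514) and with isoforms tested singly (0.0565), where the change was -1.29 in the more abundant of its 2 transcript rows.

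Srebf2, which encodes SREBP-2, the main activator of sterol synthesis, did not pass in any comparison (36.6 ± 9.39 FPKM in PBS, 30.4 ± 4.67 on day 1 and 35.95 ± 5.21 on day 28, with adjusted p = 0.516 and 0.994 against PBS). Insig2, the second Insig, was low and scattered (5.64 ± 3.097, 3.501 ± 1.67 and 4.39 ± 2.34 FPKM, adjusted p = 0.438 and 0.714). On day 28 limma called 0 of the 11 against PBS, with 1 at an unadjusted p under 0.05, the sterol carrier Stard4 (8.23, 12.4 and 13.8 FPKM in PBS and 20.7, 19.5 and 23.6 on day 28, log2 fold change 0.86 ± 0.24 SE, adjusted p = 0.0562).

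Between the days 3 of the 11 were called higher on day 28 and 0 lower: Scap, Srebf1 and Npc1, the lysosomal cholesterol transporter (45.4 ± 10.97 on day 1 and 73.7 ± 16.3 FPKM on day 28, log2 fold change 0.69 ± 0.21 SE, adjusted p = 0.0498). In PBS Npc1 was at 70.6 ± 1.2 FPKM, and its difference between day 28 and PBS did not pass (log2 fold change 0.04, adjusted p = 0.942). The Npc1 call between the days was kept without NM day 28 replicate 2 and lost in the other 8 fits that leave out 1 library. The adjusted p was 0.0599, 0.0752 or 0.0554 if PBS replicate 0, 1 or 2 was left out. It was 0.18, 0.0769 or 0.0667 if NM day 1 replicate 0, 1 or 2 was, and 0.117 or 0.109 if NM day 28 replicate 0 or 1 was. It was also lost under 8 of the 11 other settings.

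**Figure D4:**
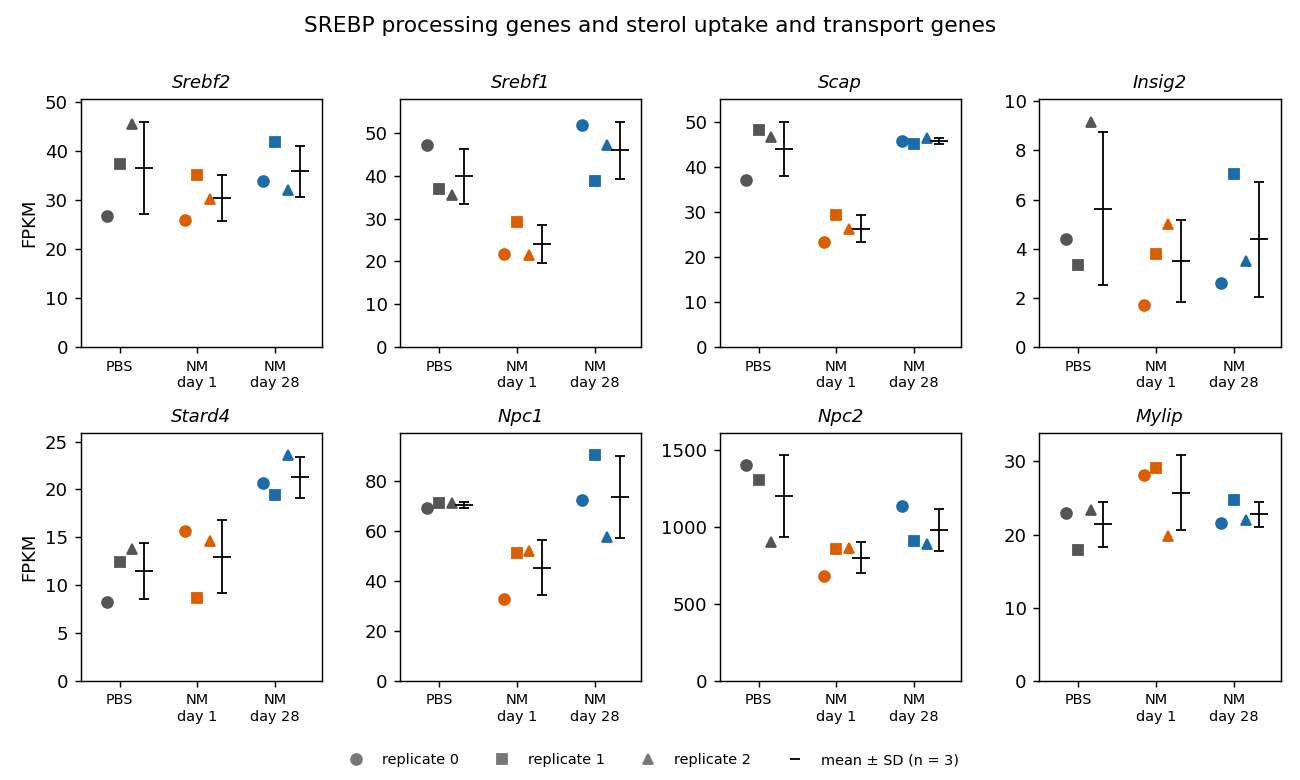
FPKM (vertical axes, each from 0) of 8 genes for SREBP processing and sterol uptake or transport in the 3 groups, with 1 symbol per library and the mean ± SD beside it. The 3 day 1 libraries of Srebf1, Scap, Npc1 and Npc2 lie below all PBS and day 28 libraries, and the 3 day 28 libraries of Stard4 above all others. Npc2 was not called in any comparison.

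Of 8 genes tested for the other branches from mevalonate (prenylation, dolichol and ubiquinone), limma called 0 in each of the 3 comparisons, with 0, 1 and 1 at an unadjusted p under 0.05 on day 1, on day 28 and between the days. Of 5 genes tested for oxysterols and cholesteryl esters, 0 were called on day 1 (2 at an unadjusted p under 0.05). Nceh1, a cholesteryl ester hydrolase, fell on day 28 from 32.6 ± 11.9 in PBS to 14.4 ± 2.33 FPKM (log2 fold change -1.07 ± 0.27 SE, adjusted p = 0.033), and Cyp27a1, the sterol 27-hydroxylase, was higher on day 28 (7.104 ± 2.35) than on day 1 (2.76 ± 0.642 FPKM, log2 fold change 1.08 ± 0.26 SE, adjusted p = 0.0203). The Nceh1 call was lost without PBS replicate 0 or 1 (adjusted p = 0.0851 and 0.15) or NM day 28 replicate 0, 1 or 2 (0.0501, 0.0512 and 0.102), and under 3 of the 11 other settings. The Cyp27a1 call was lost without NM day 1 replicate 1 or 2 (0.0928 and 0.052) or NM day 28 replicate 0 or 2 (0.0761 and 0.0719). Cyp27a1 was at 4.1 ± 0.318 FPKM in PBS, and day 28 against PBS did not pass (log2 fold change 0.62, adjusted p = 0.173).

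Of 8 genes tested for fatty acid synthesis, the branch served by SREBP-1, 0 were called on day 1 (1 at an unadjusted p under 0.05). Acss2, which makes acetyl-CoA from acetate, was the 1 called higher on day 28 than in PBS (7.18 ± 1.81 against 2.68 ± 1.52 FPKM, log2 fold change 1.21 ± 0.33 SE, adjusted p = 0.0461), and Elovl5, a fatty acid elongase, the 1 called higher on day 28 than on day 1 (38.7 ± 5.05 against 23.6 ± 2.42 FPKM, log2 fold change 0.69 ± 0.17 SE, adjusted p = 0.0192). The Acss2 call was kept without PBS replicate 1 or NM day 1 replicate 0 and lost without PBS replicate 0 or 2 (adjusted p = 0.11 and 0.12), NM day 1 replicate 1 or 2 (0.0611 and 0.0547) or NM day 28 replicate 0, 1 or 2 (0.128, 0.0633 and 0.0709). It was also lost under 7 of the 11 other settings. The Elovl5 call was lost without NM day 1 replicate 1 or 2 (0.0799 and 0.0745) or NM day 28 replicate 0 or 2 (0.0551 and 0.0752). Elovl5 was at 25.3 ± 2.7 FPKM in PBS, and day 28 against PBS did not pass (log2 fold change 0.59, adjusted p = 0.0509).

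Markers of other cells moved in the same libraries. On day 1, 7 of 8 monocyte and recruited macrophage markers tested rose (summed FPKM 12 to 22.9 in PBS, 155 to 221 on day 1 and 80.3 to 101 on day 28). So did 5 of 7 neutrophil markers (72.5 to 107, 532 to 905 and 211 to 722) and 8 of 10 alveolar epithelial markers (191 to 282, 892 to 2944 and 224 to 307). The others were 3 of 7 T cell markers (22 to 32.9, 60.4 to 70 and 28.1 to 35.0) and 4 of 8 markers of dividing cells (109 to 147, 200 to 248 and 81.6 to 131). These 4 dividing cell markers were Mcm2, Mcm4, Mcm6 and Pcna, whereas Mki67, Ccnb1, Ccnb2 and Cdk1 were not called on day 1. On day 28, 3 of the monocyte, 4 of the neutrophil, 0 of the alveolar epithelial and 0 of the dividing cell markers were higher than PBS, and Aqp5, Cdk1 and Mki67 were lower. Among 6 resident alveolar macrophage genes tested, Car4 was higher than PBS on both days, Cidec lower on both, Pparg lower on day 1 and Mrc1 lower on day 28 (summed FPKM 874 to 1634, 783 to 939 and 774 to 985). Car4 was near 0 in the PBS libraries (0, 0.155 and 0.609 FPKM) and at 21.1, 11.7 and 5.69 on day 1. Of 3 airway epithelial genes, Tppp3 was lower on day 1 and Scgb3a1 on day 28 (1240 to 7605, 1222 to 2945 and 762 to 1184). Klrk1 of 3 natural killer cell genes, Blk, the 1 B cell gene tested, and Plvap of 2 endothelial genes rose on day 1, and Ncr1, a natural killer cell gene, was higher than PBS on day 28. The 5 macrophage and monocyte genes summed above were called in 0 of the 3 comparisons by limma, with 2 of the 5 on day 1 and 0 on day 28 at an unadjusted p under 0.05. Sftpd, a surfactant protein, and Cldn5, an endothelial junction protein, were listed at 0 in all 9 libraries. The part of these cells in the values of Hmgcs1, Idi1 and the other 6 genes was not tested.

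The genes whose pattern was most like the mean of the 8 (each centred and scaled over the 9 libraries) were, by Pearson's r over those libraries among 7769 genes, Acat2 (0.966), Rpl22l1 (0.966), Ifi27l2b (0.963), Isg20 (0.954) and Riok3 (0.953). Among those most like Insig1 alone were Mdm2 (0.962), Riok3 (0.96), Slc26a6 (0.958) and Ipo7 (0.958). The members themselves had r from -0.15 (Pmvk) to 0.945 (Idi1) with the mean of the 8. Each member is part of that mean, which raises its r, whereas the non-members named above are not. The 9 points are 3 groups of 3 libraries each, and all genes share these libraries and their depth.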

How the data were processed

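RNA sequencing libraries (paired, 75 bases per end) were made from rat alveolar macrophages with a kit that copies RNA into double-stranded cDNA, per the labels' protocols. The deposited values are FPKM, 1 per RefSeq transcript and library, which the authors made with TopHat and Cuffdiff on build rn4, per the submitters' processing notes. Versions, annotation release, strand setting and the treatment of reads that map to several places are not given in the sources used here. FPKM carries no counts, so no counting interval can be given. Symbols came from a RefSeq table of build GRCr8, which named 17189 of 18197 transcript rows (94.5%), and transcripts of 1 symbol were summed. Genes at 1 FPKM or more in at least 3 of the 9 libraries entered a limma fit (version 3.58.1, R 4.3.3) of group means on log2(FPKM + 1) with a trended prior variance, and p-values were adjusted by Benjamini-Hochberg over all genes tested. The submitters state 3 biological replicates per group. All 8 genes and, of the pathway lists, those called and Srebf2, Scap and Insig2 are named. A few further genes of these lists are not reported here. Stard4, Npc2, Mvd, Tm7sf2 and Elovl6 were named after their values were seen. The members and lists were chosen with earlier results of these data known, so their counts are descriptions. The authors' list of significant isoforms, to which the labels refer, was not used here. Figures were drawn with matplotlib 3.10.9.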

Additional observations from a re-analysis of the deposited data

Results flagged for a closer look

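The 2 exposure times differed from each other, by limma's test of NM day 28 against NM day 1 over all genes, in 6 of the 8 genes. Of all genes tested, 4.75% were called higher on day 28 and 6.88% lower. Fdps (log2 difference 1.12), Fdft1 (0.87), Hmgcs1 (0.68), Cyp51 (0.64) and Insig1 (0.57) were higher on day 28, and Pmvk (-0.71) was lower. Since both times are set against the same PBS libraries, this difference is also the difference between their changes from PBS. Of the 6 calls only that of Fdft1 was kept in all 9 fits that leave out 1 library. Fdps was kept in 5 of them, Hmgcs1, Cyp51 and Insig1 in 4 each, and Pmvk in 1.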

How the results depend on the processing

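The 3 counts of called genes were recomputed under 20 alternatives. On day 1 against PBS the count of 2 was the same under the 11 other settings and ranged from 0 to 2 with 1 library left out. On day 28 against PBS it was 5 to 7 under the other settings and 4 to 6 with 1 library left out. Hmgcs1, Idi1, Fdft1 and Insig1 stayed called there in all 20. Day 28 against day 1 depended more on the setting: the count of 6 ranged from 1 to 6 with 1 library left out and was 3 with only the 6 libraries compared (Pmvk, Fdps and Fdft1). It was also 3 with the replicate block (Hmgcs1, Fdps and Fdft1), where the lost calls had adjusted p = 0.0593 (Cyp51), 0.0563 (Insig1) and 0.0514 (Pmvk). No pairing by replicate number was seen: deviations from the group means correlated at -0.10 to 0.20 in the 9 pairs with the same number and -0.26 to 0.25 in the 18 others, and 1 of the 9 libraries was closest to its own number. With 3 libraries per group these correlations cannot show that no pairing exists. The cause of the differences between the settings was not tested. Among estimates near 0 that passed no test, the sign of Fdps on day 1 (-0.01) turned with median-of-ratios scaling (0.025) and quantile normalisation (0.144). Leaving out 1 library moved Fdps on day 1 from -0.169 to 0.138, Fdft1 on day 1 from -0.052 to 0.176, Cyp51 on day 1 from -0.041 to 0.229 and Sqle between the days from -0.034 to 0.122. Over all genes, library weights (whose estimation stopped before it converged) raised the calls on day 1 from 522 higher and 453 lower to 650 and 742, on day 28 from 303 and 393 to 498 and 657, and between the days from 470 and 680 to 911 and 1093. With 1 library left out, the calls on day 1 ranged from 181 higher and 55 lower (without NM day 1 replicate 0) to 658 and 721 (without NM day 28 replicate 1). Those on day 28 went down to 154 and 120 (without PBS replicate 1), and those between the days to 214 and 300, or 2.20% and 3.09% of the genes tested (without NM day 1 replicate 1). Other scalings moved the median change of all genes to between -0.055 and 0.046.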
